A study of Saccharomyces cerevisiae with 14 samples.

Results

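A set of 253 MazF cleavage sites, of 1184 distinct sites in the table, had no value in the 0 h and 1 h libraries of a meiotic time course and were then cut at a high level. The sites were chosen from the cleavage values themselves: no value at 0 h or 1 h, at least 3 values among the 3.5, 4, 5 and 6 h libraries, and a median over those hours of 0.8 or more. They lie in 243 genes on all 16 chromosomes. They make up 21.4% of all sites and 52.9% of the 478 sites that were listed late in this way, and the other 225 late-listed sites had medians below 0.8. All cells were SK1 diploids, MAT a/alpha, homozygous for lys2, for ho::LYS2 and for ndt80::LEU2. The ndt80 disruption removes the transcription factor that takes cells out of pachytene, so the later hours come from cells that cannot complete meiosis. One library of polyA RNA was made at each of 0, 1, 2, 3, 3.5, 4, 5, 6, 7 and 8 h after meiosis was induced, without replicates, and it is not stated in the labels if a single culture was sampled throughout. The series also has 4 control samples at 8 h, 2 with wild-type IME4 and 2 with ime4::HIS3/ime4::HIS3, which were not analysed here because no column name matches their labels.

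MazF is an RNA endonuclease that cuts immediately before an ACA motif. When the first A of the motif carries N6-methyladenosine (m6A), the enzyme does not cut. Cleavage efficiency is the fraction of RNA cut at a site, so a value near 1 belongs to a motif that is mostly unmethylated and a low value to one that may be methylated. In budding yeast m6A is laid down in meiosis by a complex that holds Ime4, and the entry into meiosis switches on genes of recombination, DNA replication and chromosome segregation that are silent or low in starved vegetative cells. A value can be given only where a transcript is present, and why a value is missing was not stated. The reads behind each value are unknown, and intervals for counting error cannot be computed.

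Because the rule asks for late listing, the genes of the sites are shown before their levels. In the genes of early meiotic recombination and synapsis, 26 sites were listed: 6 belong to the late-listed highly cut set, 9 were late-listed with medians below 0.8, and 11 had a value at 1 h. The 6 sites lie in 5 genes: MEI5, PCH2, RAD57, RDH54 and SPO22. Early meiotic genes are known to be repressed in vegetative cells by Ume6 bound to a promoter element, URS1, through which Ime1 later activates them. The letters GGCGGC, the core of URS1, were found on either strand in the promoters of 3 of these 5 genes, within 250 bases before and 50 bases after the annotated start of the gene. The same letters were in 21 of the 63 promoters of the whole recombination list (33.3%), in 17 of 242 promoters of all genes with a late-listed highly cut site (7.02%) and in 308 of 6001 yeast promoters (5.13%). MEI5 and SPO22 carry 3 of the 6 sites. Their promoters are shown and were eligible for print because they hold these letters. They were read from the RefSeq R64 reference of strain S288C on the strand of the gene, with the motif or its reverse complement in capitals, for MEI5 from chrXVI:321581-321880 (minus strand) and for SPO22 from chrIX:225905-226204 (minus strand).
MEI5: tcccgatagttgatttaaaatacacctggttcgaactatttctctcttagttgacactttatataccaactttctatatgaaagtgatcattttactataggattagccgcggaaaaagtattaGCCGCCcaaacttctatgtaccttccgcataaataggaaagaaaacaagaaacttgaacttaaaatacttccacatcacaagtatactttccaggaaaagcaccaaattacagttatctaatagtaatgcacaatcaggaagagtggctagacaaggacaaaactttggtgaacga
SPO22: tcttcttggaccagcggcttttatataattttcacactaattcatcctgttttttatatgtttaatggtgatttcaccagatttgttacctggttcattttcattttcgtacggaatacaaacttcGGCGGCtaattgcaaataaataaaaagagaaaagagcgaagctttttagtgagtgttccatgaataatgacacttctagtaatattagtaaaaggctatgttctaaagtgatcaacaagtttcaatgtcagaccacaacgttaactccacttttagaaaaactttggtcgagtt
A match is a description of these letters and not a mapped binding site. Among promoters of all genes with a late-listed highly cut site, ACGCGT (the MCB element of genes of the G1 to S transition) was in 10 of 242 (4.13%, against 3.07% of all promoters), and GNCACAAAA (a form of the middle sporulation element bound by Ndt80) in 1 (0.413%, against 1.95%). Among the 994 genes with any listed site the shares were 6.54% for GGCGGC, 3.92% for ACGCGT and 1.91% for GNCACAAAA, and among genes with a late-listed site below 0.8 they were 6.22%, 6.70% and 3.35%. No sequence is printed for the cleavage sites, since the table's coordinates do not belong to R64: 72 of 1166 sites lay inside the R64 bounds of the gene they are named for.

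MEI5, whose product forms a complex with Sae3 that loads the recombinase Dmc1, had both of its listed sites in the set. The site at position 441 of the gene (YPL121C, chromosome 16, position 330682 of the table, minus strand) had efficiencies of 0.881 and 1.00 in the 2 h and 3 h libraries, of 0.922, 0.921, 0.934 and 0.897 from 3.5 to 6 h, and of 0.843 and 0.876 in the last 2 libraries. The site at position 238 had values of 0.876 at 2 h, 1.00 at 3 h and 0.867 to 0.982 from 3.5 to 6 h, and none at 7 h or 8 h. Both MEI5 sites were thus highly cut from the hour at which they were first listed. In SPO22, a component of the synapsis initiation complex, the site at position 2665 was cut by 0.866 at 2 h and 0.913 at 3 h, by 0.843, 0.764, 0.873 and 0.735 from 3.5 to 6 h, and by 0.762 at 7 h and 0.692 at 8 h. The values at 7 h and 8 h lay below those at 2 h and 3 h. RDH54, a DNA translocase that works with Dmc1, was cut by 0.864 to 0.962 at 2 to 6 h (position 2919). PCH2, an AAA+ ATPase that remodels Hop1 and acts in the pachytene checkpoint, was listed at position 674 from 3.5 to 6 h only, at 0.904, 0.956, 0.847 and 0.949. Of its 3 other sites 1283 was at 0.728 to 0.862, 1670 at 0.426 to 0.490 and 1881 at 0.126 to 0.303 in these libraries. The same hours placed 674 in the set and 1881 among the late-listed sites below 0.8, so the order of these 2 sites is part of the choice. RAD57, a gene of recombinational repair, was listed at position 1012 at the same 4 hours, at 0.815, 0.836, 0.878 and 0.874.

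Listing of the 253 sites began mostly at 2 h and thinned out after 6 h. The rule sets part of this course. It allows no value before 2 h and asks for at least 3 values at 3.5 to 6 h, so only the 2, 3, 7 and 8 h libraries were free to differ. The earliest value was that of 2 h for 176 sites, of 3 h for 25, of 3.5 h for 51 and of 4 h for 1. The latest was that of 5 h for 18 sites, of 6 h for 105, of 7 h for 34 and of 8 h for 96. In the 2, 3, 7 and 8 h libraries, which the rule did not use, 69.6%, 59.3%, 47.0% and 37.9% of the sites had a value. The late-listed sites below 0.8 had nearly the same shares, 67.1%, 57.8%, 53.3% and 38.2%, while sites with a value at 0 h had one in 96.0%, 92.6%, 82.9% and 77.6% of cases. Over all 1184 sites the shares were 83.4%, 75.3%, 62.5% and 52.9%, so the libraries with fewer values for this set also had fewer for the whole table. Whether a missing value means less RNA per cell, fewer cells that hold the transcript or a shallower library cannot be told apart. A full run from 2 h to 8 h was present for 49 sites, 44 had every value from 2 h to 6 h and none later, and 20 were listed at 3.5, 4, 5 and 6 h only.

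**Figure D1:**
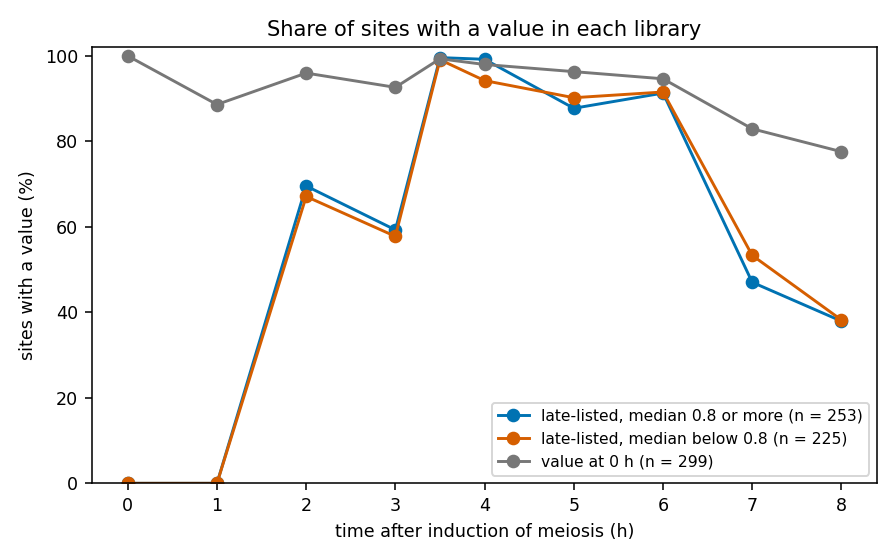
Share of sites with a value (%) in each of the 10 libraries, against hours after induction of meiosis, for the 253 late-listed sites with high cleavage, the 225 late-listed sites with medians below 0.8 and the 299 sites with a value at 0 h. Both late-listed groups start at 0% by definition, stand at 69.6% and 67.1% at 2 h and end at 37.9% and 38.2% at 8 h.

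Cleavage at these sites was high at every hour with values, also at the hours that the rule left out. The medians over the listed sites were 0.912, 0.905, 0.898 and 0.905 in the 2, 3, 7 and 8 h libraries. In the 3.5, 4, 5 and 6 h libraries, used for the choice, they were 0.908, 0.920, 0.899 and 0.897. A value of 0.8 or more was reached at 2 h by 153 of 176 listed sites (86.9%, against 69.3% of all sites), at 3 h by 136 of 150 (90.7%, against 69.1%), at 7 h by 100 of 119 (84.0%, against 59.3%) and at 8 h by 83 of 96 (86.5%, against 67.1%). For the late-listed sites below 0.8 the shares were 29.1%, 27.7%, 21.7% and 30.2%. High and low late-listed sites therefore kept their order in libraries that played no part in separating them, with medians of 0.738, 0.703, 0.612 and 0.669 for the lower group at 2, 3, 7 and 8 h. In 145 of the 253 sites every listed value was 0.8 or more, and 2 sites had a value below 0.5. One is in DYN1, the dynein heavy chain gene (0.493 at 3.5 h, then 0.757, 1.00 and 1.00), and the other in EPL1, of the NuA4 histone acetyltransferase (0.417 at 7 h).

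**Figure D2:**
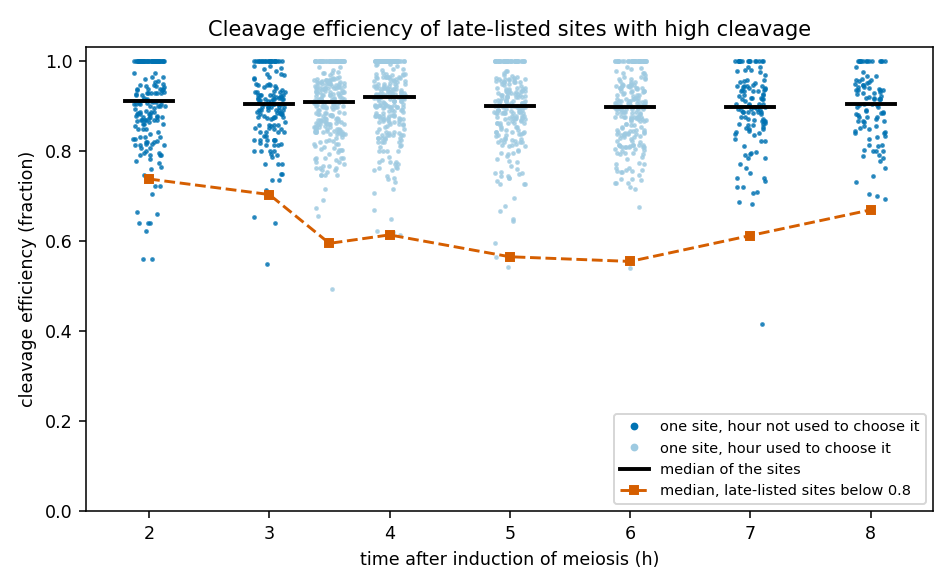
Cleavage efficiency (fraction) of each late-listed site with high cleavage by hour after induction, dark points for hours not used to choose the sites and light points for hours used, with bars at the median of the sites. The medians stay between 0.897 and 0.920, while the medians of the late-listed sites below 0.8 (squares) run from 0.738 at 2 h to 0.555 at 6 h.

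Medians over 3.5 to 6 h ran from 0.801 to 1.00, with a median of 0.899 and quartiles of 0.855 and 0.945. A median of 0.95 or more was found at 60 sites and one of exactly 1 at 25. Just inside the threshold were EPL1 (0.801), RGA2 (0.802), PLB2 (0.803), SPO22 (0.804) and TCB3 (0.805), and just outside were SLT2 (0.799), HKR1 (0.799), TFC6 (0.799), ARP7 (0.798) and HUL5 (0.797). The cut falls in a continuous range, with 23 sites within 0.02 above it and 19 within 0.02 below.

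Values of exactly 1 and values shared between sites were common in this set. Of 1497 values at 2 to 8 h, 279 were written as 1 in the table (18.6%), against 27 of 1331 (2.03%) for the late-listed sites below 0.8. Of the 1218 values below 1, 1031 were equal, to 12 decimals, to the value of another site in the same library (84.6%), against 63.3% for the late-listed sites below 0.8 and 40.3% for sites with a value at 0 h. Their part in the levels described here was not tested. At 4 sites every listed value was 1: in SGS1 (position 3637, all 8 libraries from 2 h), a RecQ helicase, and in EBS1 (1639), PHO89 (909) and TIF4631 (2832). A pair of sites in the near-identical genes EFT1 and EFT2, both for translation elongation factor 2, had equal values in all 8 libraries, from 0.958 to 1.00, and cannot be counted as separate measurements.

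The next question was whether cleavage changed late in the course, asked in the libraries that the rule did not use. The 7 h and 8 h libraries were compared with the 2 h and 3 h libraries by limma across all 500 sites with a value in all 4, of which 49 belong to the set. None of the 49 sites changed at an adjusted p of 0.05, nor did any of the 500 (0% called). At an unadjusted p under 0.05 there were 3 of 49, against 46 of 500 (9.2%); of the 3, 2 were lower late (6.8% of all sites) and 1 was higher (2.4%). The difference was negative at 23 of the 49 sites, positive at 24 and 0 at 2 (22, 24 and 2 with the equal EFT1 and EFT2 sites counted once), with a median of 0.00 and a range from -0.248 to 0.120, against a median of -0.0139 and 58.6% negative over all 500 sites. The median standard error of a difference was 0.0425. Both late values lay below both early values at 10 of the 49 sites (24.4% of all sites) and above them at 7 (12.6%). The late-listed sites below 0.8 had a median difference of -0.0225 over 49 sites, and the 224 sites with a value at 0 h one of -0.0155; the difference between these groups was not tested.

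The largest negative differences, none of which passed the adjusted test, were in genes of unlike roles. HAP4, which supplies the activation domain of the Hap complex on respiratory genes, was cut at position 1220 (YKL109W, chromosome 11, position 235105 of the table, plus strand) by 1.00 and 0.947 early and by 0.706 and 0.744 late. That is a difference of -0.248 ± 0.0349 (SE, limma, adjusted p = 0.427, 2 libraries a side), and the 2 sides did not overlap. Another HAP4 site, 93 bases away at position 1313 and already listed at 0 h, was also lower late. It was at 0.772 and 0.855 early and at 0.707 and 0.709 late, and both HAP4 sites were at 0.786 at 6 h. SPO22 differed by -0.162 ± 0.0403 (limma, adjusted p = 0.482), also without overlap. Next came MGR3, of the mitochondrial inner membrane (-0.126), CHS3, a chitin synthase (-0.122), ATG32, the mitophagy receptor (-0.0922), the MEI5 site at 441 (-0.0815), UBP2, a ubiquitin protease (-0.0721), and STB2, which binds the Sin3 corepressor (-0.0717). Among these 8, the sides overlapped at MGR3 and not at the others. They were picked for the size of the same difference, which favours sides that do not overlap. Both late values lay below both early values at 10 of the 49 sites and at 24.4% of all sites.

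The largest positive differences were smaller. SNF12, a subunit of the SWI/SNF chromatin remodeller, had 0.759 and 0.713 early and 0.771 and 0.941 late, a difference of 0.120 ± 0.0712 (limma, adjusted p = 0.691). The site in MRX3, a mitochondrial protein, was at 0.706 and 0.771 early and 0.8502 and 0.8547 late, a difference of 0.114 ± 0.0349 (limma, adjusted p = 0.491). Those of ALE1, a lysophospholipid acyltransferase (0.109), the cohesin loader SCC2 (0.108), SDD4 (0.0862), MES1, methionyl-tRNA synthetase (0.0846), STB4 (0.0634) and TIF4631 at position 2621, a scaffold of translation initiation (0.0628), followed. Many of these 16 differences rested on 1 library: leaving out one of the 4 moved 10 of them by over 1.5 times, and HAP4, SPO22, ATG32, UBP2, SDD4 and MRX3 by less. ALE1 turned to -0.0169 without the 2 h library, where MGR3 was at -0.0476, MES1 at 0.0387 and SCC2 at 0.0530. Without the 3 h library MEI5 was at -0.0222 and STB4 at 0.0163. TIF4631 was at 0.00365 and STB2 at -0.0384 without 7 h, and SNF12 at 0.0353 and CHS3 at -0.0801 without 8 h.

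Genes of chromosome segregation supplied the largest group from a gene list. Of 28 listed sites in genes of cohesin, condensin, the kinetochore and the spindle, 17 (60.7%, against 21.4% of all sites) belong to the set, 10 were late-listed below 0.8, and none had a value at 0 h or 1 h. Nearly all sites of this list were thus late-listed, which is part of the rule. Among all 478 late-listed sites 52.9% belong to the set, and the split of 17 to 10 is to be read beside that share. The 17 sites lie in 16 genes, and their medians over 3.5 to 6 h had a median of 0.903. CIN8, a kinesin-5 motor that pushes spindle poles apart, was cut at position 3115 by 0.861 and 0.982 at 2 and 3 h, by 0.907, 0.940, 0.885 and 0.983 from 3.5 to 6 h, and by 0.985 and 0.920 at 7 and 8 h. Its partner motor gene KIP1 was at 0.829 to 0.956 from 3.5 to 7 h, its only listed hours. CSE4, the histone H3 variant of centromeres, was at 0.765 at 2 h and between 0.847 and 1.00 afterwards. STU2, a microtubule polymerase, was among the most even sites, from 0.925 to 1.00 over 8 libraries.

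Cohesin and its loader were represented by SMC1 and SCC2. SMC1, a coiled-coil ATPase of the cohesin ring, was cut at position 2882 by 0.839 to 0.921 at 2 to 7 h, and SCC2 at 3791 by 0.747 at 2 h and 0.960 at 8 h. SPC110, which links the spindle pole body to microtubules, was at 0.781 to 0.935, and both sites of KAR1, of the half-bridge of the spindle pole body, at 0.826 to 1.00. In the dynein pathway, which positions the nucleus in mitotic cells, DYN3 was at 0.744 to 0.932 and NUM1, the cortical anchor, at 0.79999 to 1.00. The other sites of this list lie in BIR1, BUB1, SPC34, KAR3, DYN1 and SMC4, and except for DYN1 their values were 0.757 or higher. High medians are set by the rule here, and the sites differed among themselves, from DYN1 with its low early values to STU2, which stayed near complete cleavage.

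**Figure D3:**
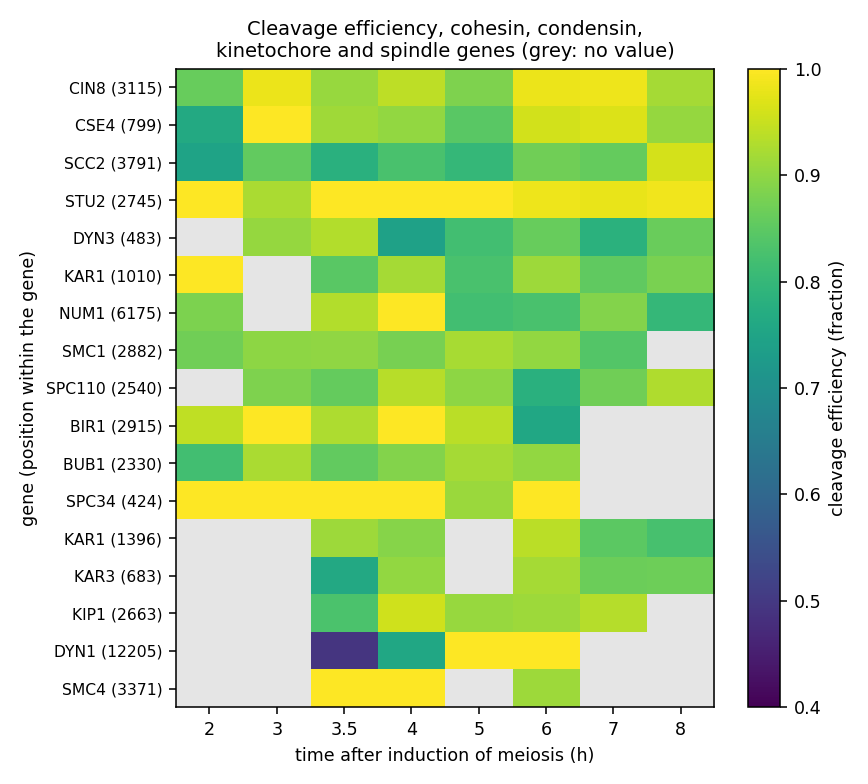
Cleavage efficiency by hour (2 to 8 h, columns) of the 17 late-listed highly cut sites in genes of cohesin, condensin, kinetochore and spindle (rows, gene with position within the gene), with grey for no value. The lowest value is 0.493 in DYN1 at 3.5 h, and CIN8, CSE4, SCC2 and STU2 had a value at every hour shown.

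Of 45 listed sites in genes of DNA replication and repair, 14 (31.1%, against 21.4% of all sites) belong to the set, each in a different gene. A further 10 were late-listed below 0.8 and 16 had a value at 0 h or 1 h. The split of 14 to 10 is to be read beside the 52.9% of all late-listed sites that belong to the set. SGS1 had 8 values of 1.00. MCM2, a subunit of the replicative helicase, was cut at position 890 by 0.946 and 0.941 at 2 and 3 h, by 0.877, 0.900, 1.00 and 1.00 from 3.5 to 6 h and by 0.865 at 7 h. MSH6, of mismatch recognition, was at 0.893 to 1.00, and RNR1, the large subunit of ribonucleotide reductase, at 0.842 to 0.898 from 2 to 6 h and 0.751 at 7 h. The helicase gene SRS2 was at 0.748 at 3 h and 0.810 to 1.00 later. MCM4 was at 0.941 to 1.00 and MCM7 rather uneven, from 0.661 at 2 h to 1.00 at 5 h. The photolyase gene PHR1 was at 0.907 to 1.00. The remaining sites, in CDC13, ORC1, PRI1, RAD14, RRM3 and TOP3, had 3 to 5 values each.

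Of 29 sites in genes of chromatin and histone modification, 10 (34.5%, against 21.4% of all sites) belong to the set and 6 were late-listed below 0.8. That split is to be read beside the 52.9% of all late-listed sites that belong to the set. MSI1, a subunit of chromatin assembly factor I, was at 0.882 to 0.987 and NGG1, of the SAGA complex, at 0.821 to 0.916 over all 8 hours. SIR4, of silent chromatin, was at 0.839 to 1.00, and the remodeller genes INO80, SNF2 and SWR1 at 0.939 to 1.00, 0.727 to 0.926 and 0.666 to 0.920. ESA1, the catalytic subunit of NuA4, was at 0.812 to 0.920 while EPL1, of the same complex, ranged from 0.417 to 0.885. Of 19 sites of the nuclear pore and nuclear transport, 7 (36.8%) belong to the set and 5 were late-listed below 0.8, to be read beside the same 2 shares. Of the 7, 3 lie in NUP159, a nucleoporin of the cytoplasmic face. Those in NUP157 (0.622 to 1.00) and in NUP159 at position 4317 (0.720 to 1.00) were among the most variable over the hours.

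Other lists held fewer of these sites. Their counts are to be read beside the 21.4% of all sites and the 52.9% of late-listed sites that belong to the set. Of 18 sites in mitochondrial gene expression and respiration 6 (33.3%) belong to the set and 2 were late-listed below 0.8. The 6 lie in RPO41, the mitochondrial RNA polymerase (0.892 to 1.00), MIP1, the mitochondrial DNA polymerase (0.838 to 1.00), AEP3, HAP4, MTF2 and NDE1. Of 41 sites of the proteasome and ubiquitin ligation 7 (17.1%) do, among them UBR2 (0.812 to 0.916) and ULP2, a SUMO protease (0.875 or more at all 7 listed hours), beside UBP2, UBP12, UFO1, SSM4 and DMA2. Autophagy gave 2 of 13 sites, in ATG1, the initiating kinase (0.871 to 1.00), and ATG32, and the cell cycle list 2 of 13, in NET1 and FKH1. NDT80 targets of middle sporulation gave 1 of 6, in SPR1, a sporulation glucanase, at 0.891 to 0.943 from 4 to 8 h. Acetate use gave 1 of 19, in FBP1 of gluconeogenesis. None of 9 sites of glycolysis, 5 of regulators of meiotic entry, 3 of mitotic growth, 2 of the methylation machinery and 1 of haploid and mating genes belongs to the set.

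**Figure D4:**
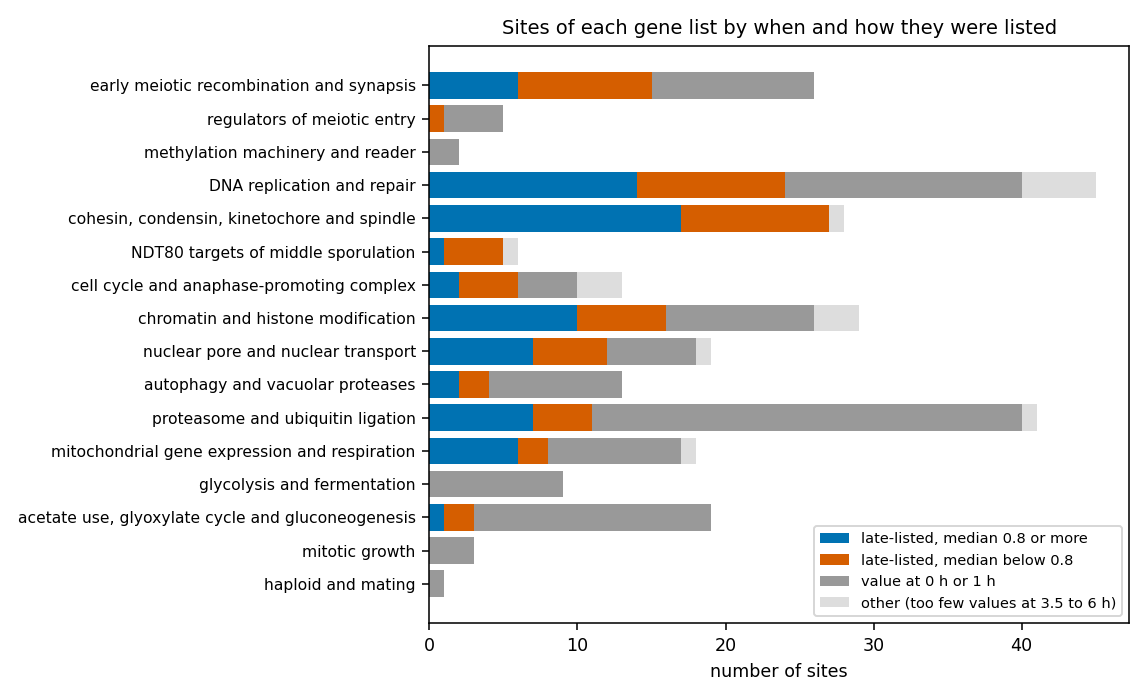
Number of sites in each of the 16 gene lists, split into late-listed sites with medians of 0.8 or more, late-listed sites below 0.8, sites with a value at 0 h or 1 h, and other sites. The list of cohesin, condensin, kinetochore and spindle genes has 17, 10 and 0 sites in the named classes and that of glycolysis 0, 0 and 9.

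Sites differed in how even they were over the hours. Among the 87 sites with at least 7 values, the SD over 2 to 8 h had a median of 0.0577, against 0.116 for 80 late-listed sites below 0.8 and 0.0471 for 240 sites with a value at 0 h. Values near 1 leave less room to vary, so these SDs are descriptions of unlike ranges. The most even, after SGS1 and the EFT1 and EFT2 pair, were the septin gene CDC3 at position 1335 (0.823 to 0.873 over 8 libraries) and STU2. The most variable were SCH9, a kinase that acts downstream of target of rapamycin complex 1 (0.646 to 1.00), the copper pump gene CCC2 (0.614 to 1.00), the vacuolar casein kinase gene YCK3 (0.639 to 1.00), NUP157 and NUP159.

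Sites of the same gene can be compared within a library, though whether they lie on the same transcript isoform is not known from the table. The set has 69 sites in 59 genes with at least 2 listed sites, which gave 63 pairs of a highly cut late-listed site with a site outside the set, in 52 genes. Of the 47 pairs with a shared value at 2, 3, 7 or 8 h, the late-listed highly cut site was the higher at every such hour in 20, the lower in 12 and neither in 15. The excess of higher sites lay in the 17 pairs whose other site was late-listed with a median below 0.8, and so was itself chosen for low cleavage, with 10 higher, 2 lower and 5 neither. In the other 30 pairs the counts were 10, 10 and 10. In HFA1, the mitochondrial acetyl-CoA carboxylase gene, position 6400 was cut by 1.00, 1.00 and 0.799 at 2, 3 and 7 h, while the nearby position 6502 was cut by 0.0154, 0.0178 and 0.0138. Both positions exceed the gene's R64 length of 6372 bases, but it is not stated from which point the table counts positions. In MES1, position 2312 exceeded position 1609 by 0.567 to 0.696 at the 4 hours that the rule did not use. In both genes the gap between the sites was wider at every shared hour than the whole range of the highly cut site over the hours.

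Wide gaps were found in other genes too. In AVO2, of target of rapamycin complex 2, position 566 was at 0.881 and 0.968 at 2 h and 3 h, and position 1016 at 0.411 and 0.114. In SMC1 position 2882 exceeded 3349 at all 7 shared hours, by 0.110 at 2 h and 0.423 at 3 h. MIP1 was cut at 2854 by 0.891 and at 3889 by 0.0310 at 7 h. The gap was not constant in BDP1, a subunit of the RNA polymerase III factor TFIIIB, where position 402 was higher at 2, 3 and 7 h but at 8 h stood at 0.730, below the 0.871 of position 1939. The reverse order was seen in STB3, YKT6, SPO22 and CDC3, where a site outside the set was the higher at every shared unused hour: SPO22 position 2665 minus 1796 gave -0.280 to -0.0318 at these hours, and CDC3 position 1335 minus 1258 gave -0.102 to -0.0357.

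**Figure D5:**
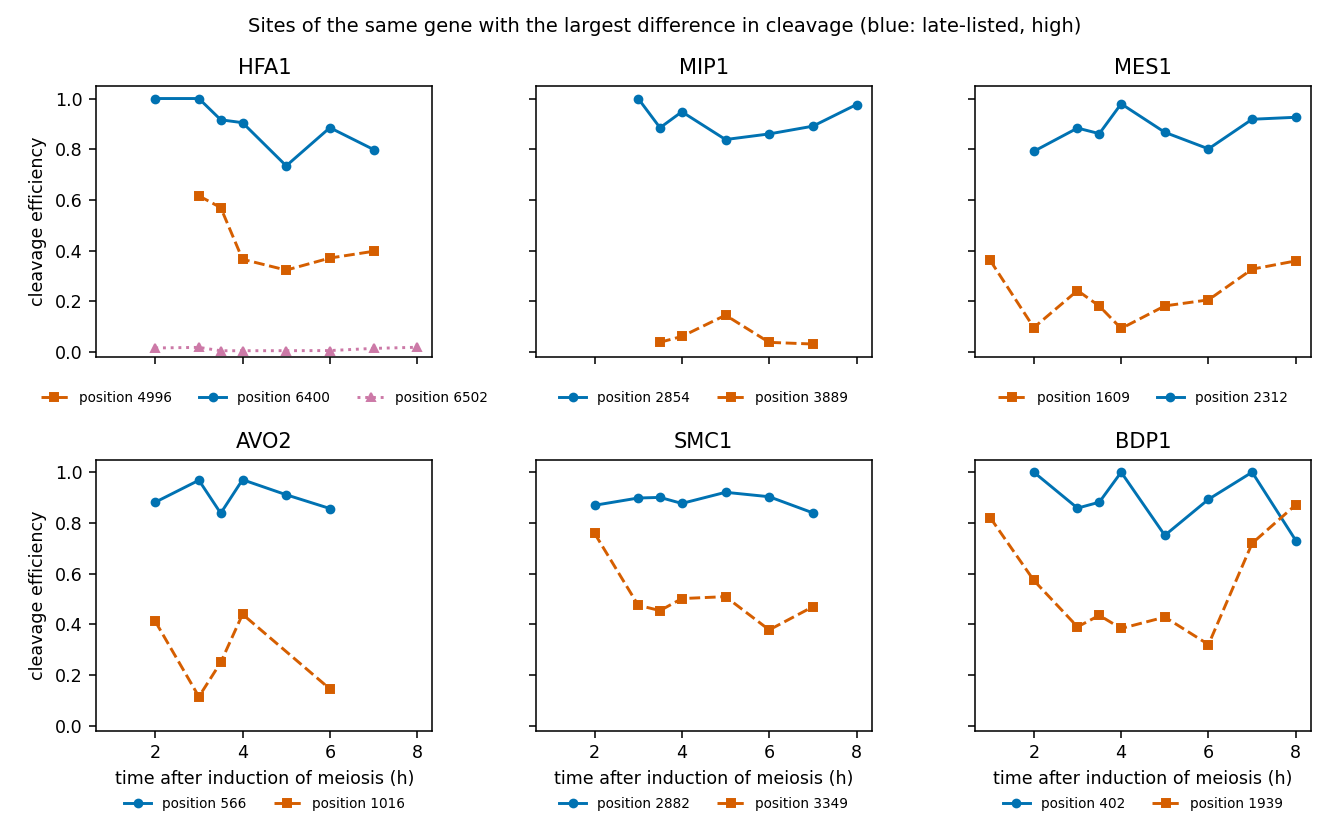
Cleavage efficiency (fraction) against hours after induction at the listed sites of 6 genes, those with the largest mean difference between a late-listed highly cut site (solid line) and a site outside the set with a shared value at 2, 3, 7 or 8 h. In HFA1 position 6502 stays near 0 while position 6400 lies between 0.734 and 1.00, and in BDP1 the lines cross at 8 h.

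Late listing of a site did not always go with late listing of its gene. In 36 of the 63 pairs the other site of the gene already had a value at 0 h or 1 h. The earlier-listed site lay downstream, at a higher position in the gene, in 23 of these pairs and upstream in 13. In TFC3, of the RNA polymerase III factor TFIIIC, position 3647 had a value at all 10 hours (0.814 at 0 h), while position 3369 was listed from 2 h, at 0.912 to 1.00. In BDF2 position 2068 was listed at every hour and position 363 from 2 h to 6 h. RNA of such genes was thus measured before the late-listed site had a value.

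Positions were also compared with the annotated length of each gene in R64. Of protein-coding gene lengths 96.3% are multiples of 3, so the annotated length is not always that of the coding sequence. It is not stated from which point the table counts positions, and positions are only set against each other. The median position was 0.825 of the gene length for 252 sites of the set, 0.906 for the late-listed sites below 0.8 and 1.01 for sites with a value at 0 h. A position beyond the gene length was given for 50 of 252 (19.8%), 87 of 224 (38.8%) and 149 of 289 (51.6%) of these groups. The median lengths of the genes were 2082, 1899 and 1326 bases. Gene length and place in the gene thus moved with the class of site, and their part in listing and level was not tested.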

How the data were processed

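Cleavage efficiencies were deposited by the authors as a fraction from 0 to 1 per site and library, with missing values. The tools named, with no role, are bedtools 2.26.0 and STAR 2.5.3a, per the submitters' processing notes. Not given in the sources used here are the genome build, any coverage minimum and the reads behind a value. A column was matched to a sample by its hour, and 4 columns whose names match no label were not used. Of 1198 rows, 14 that repeated a position were removed. Identifiers of 995 of 1010 genes matched R64, which was used for names, gene lengths and promoters.

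The contrast of 7 and 8 h with 2 and 3 h was fitted in limma 3.58.1 (R 4.3.3) on the unscaled fraction, with Benjamini-Hochberg adjustment over all 500 sites. It was also run on simulated data with the same normal spread at every site and no upper bound. The measured fractions differ from that setting, so the simulation does not show the error rate of the contrast here. With 2 libraries a side and neighbouring hours of a course in place of replicates, p-values measure scatter between single libraries. Named sites were the members of 16 gene lists (at most 8 in full per list), the 8 largest falls and rises, those at the threshold, the most even and most variable, and those in genes with several sites, of which the widest gaps are given. The sites and lists were chosen with earlier results of these data known. The planned comparison of ime4 deletion with wild type was not made. One promoter sequence is not reported here.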

Additional observations from a re-analysis of the deposited data

How the results depend on the processing

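The count of sites in the set depended most on the hours required to be empty: it was 473 with no value asked for at 0 h only, against 253. It ran from 197 (medians of 0.85 or more, or all 4 values needed) to 302 (medians of 0.75 or more) under the other settings, was 249 with a mean, and was 198 to 226 without any 1 of the 3.5, 4, 5 or 6 h libraries, where a value in each of the other hours was needed. Of the 14 alternatives, those that kept 2 libraries a side had no site of the set that passed the limma contrast. At an unadjusted p under 0.05 there were 8 of 90 sites tested with at least 3 of 4 values. There were 0 of 3 without shared values, and 1 to 6 of 29 to 61 in the other such fits. The main fit had 3 of 49, against 9.2% of all sites, and shares over all sites were not taken for the alternatives. The median difference stayed between -0.00483 and 0.0176, and between -4.67e-05 and 0.00325 when 1 library was left out. Fits with 3 windows over 2 to 8 h, without shared values below 1 (3 sites left) and between single hours were added after seeing the data. Of those 3 sites SGS1 and TFC3 stood at 1 in all 4 libraries, and only SCC2 varied. Of 171 values of the 16 named sites under these alternatives 170 kept their direction, and ALE1 without 2 h was at -0.0169. Many of these values could not turn. Settings that changed only the variance model or which sites were fitted returned the same difference. A difference whose sides did not overlap could not turn when 1 library was left out. The count is thus no measure of how firm the directions are. No paired analysis was possible because the only samples that share replicate numbers are the controls, which were not analysed here; the ime4 comparison and its alternatives were not run. Unknown depth limits every level, and values of exactly 1 most of all.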

Other observations

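Several complexes and pathways had more than 1 late-listed highly cut site. These groups were formed after the sites were known, so their counts carry no test. They are to be read beside the 21.4% of all sites and the 52.9% of late-listed sites that belong to the set. All 3 listed genes of the SPS sensor of external amino acids belong to the set: SSY1, the sensor (0.838 to 0.952), SSY5, its protease (0.928 to 1.00), and STP1, the transcription factor released by it (0.779 to 0.919). For the AP-3 adaptor, which carries cargo to the vacuole, 3 of 4 sites belong to it, in APL5 (0.788 to 1.00) and at both positions of APM3. Of the TRAPP tether of vesicles 3 of 4 sites do, in BET5, TRS85 and TRS130, the last at 0.622 at 2 h and 0.907 at 3.5 h. Both subunits of the Pan2-Pan3 poly(A) nuclease were listed, PAN2 at 0.876 at 2 h and 0.650 at 5 h and PAN3 at 0.923 to 1.00, along with CDC39 of the Ccr4-Not complex (0.849 to 0.922). These are 3 of 4 sites in deadenylation complexes, and the other, CDC39 position 3770, had a value at 1 h.

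In the signalling pathways, 4 of 7 sites of target of rapamycin complex 2 and its effectors belong to the set, in TOR2 (0.783 to 0.924), AVO2, SLM2 (0.772 to 0.972) and YPK2 (0.885 to 1.00). Of 4 sites in the cell wall integrity kinases 2 belong to the set, both in 1 gene, BCK1, the kinase kinase kinase of the pathway. The other 2, among them BCK1 position 4358, were late-listed below 0.8. BCK1 position 4136 was at 0.639, 0.653 and 0.690 from 2 to 3.5 h and 0.814 to 0.907 from 4 to 6 h, and position 589 at 0.815 to 1.00. Of 7 sites in RNA polymerase III and its factors 4 belong to the set, in TFC1, TFC3, BDP1 and RPC53. Of 5 septin sites 2 do, in CDC3 and CDC10, while the CDC3 site at position 932 was at 0.377 at 4 h and 0.649 at 8 h.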
